A study of Mus musculus with 9 samples.

Results

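The 76 mRNAs that encode proteins of the cytosolic ribosome were followed across 9 libraries of mouse embryonic stem cells. They were taken by name from the 23668 named symbols of the expression table: symbols that begin with Rpl, Rps or Rplp and a plain number, with an a or x ending allowed, and Rpsa. Of the 76, 46 encode proteins of the large subunit and 30 proteins of the small subunit. Each stood on 1 row of the table, none was listed at 0 in any library, and all 76 passed the filter on low values. The naming rule leaves out some genes that also encode ribosomal proteins, Rps3a1 and Fau among them, and paralogs such as Rps27l; these are described apart, after the members.

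The lines Oct4 GiP, v6.5 and E14, all 3 established, were cultured for 2 weeks on gelatin, without a feeder layer named in the labels. Paused cells had INK128, which inhibits the mTor kinase, over those 2 weeks at 200 nM. The other groups were cells labelled 2i and cells labelled Serum, and no inhibitor dose is given for them; the labels give neither the composition of 2i nor the medium that carried INK128. Each line gave 1 library in each condition, so a condition has 3 libraries from 3 lines and no line was repeated within a condition. All 9 samples were at passages 20 to 23, gave 250 ng of total RNA for mRNA purification with a directional library kit, and carried ERCC spike-in RNA. Every p-value below rests on the spread left among the 9 libraries after the means of line and of condition are taken out.

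The ribosome joins a large subunit, which forms peptide bonds, and a small subunit, which reads the mRNA, and each subunit carries its proteins in a fixed set beside the ribosomal RNA. The mRNAs of these proteins are among the most abundant in dividing cells. They carry a run of pyrimidines that starts with a C at their 5′ end, the terminal oligopyrimidine (TOP) tract, through which mTor signalling controls how well they are translated. Rps6, a small subunit protein, is the classical substrate of S6 kinase downstream of mTor. The libraries measured mRNA levels and not translation, and they are bulk samples, in which fewer cells that express a gene and less of its RNA per cell cannot be told apart.

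The TOP tract can be seen in the reference sequence at the annotated starts. RefSeq promoter sequences (GRCm38.p6) matched 56 of the 76 members. A C followed by at least 4 pyrimidines lay exactly at the annotated start in 13 of the 56 (23.2%), with tracts of 5 to 13 bases, against 3.01% of the 27018 genes with a promoter. Windows of 30 bases, 15 before the annotated start and 15 from it on, are shown for 5 members with such a tract, Rps6 and 4 that were called in a comparison, and for Rpl41 and Rps4x, which have none at that base and had the largest fall and the largest rise between Paused cells and another condition. All 7 genes run on the minus strand. The windows lie at chr4:86857353-86857382 (Rps6), chr3:90213634-90213663 (Rps27), chr17:33955651-33955680 (Rps18), chr14:18270972-18271001 (Rpl15), chr2:39005117-39005146 (Rpl35), chr10:128549154-128549183 (Rpl41) and chrX:102189377-102189406 (Rps4x). Sequences are written 5′ to 3′ on the gene's strand, and capitals mark the tract.
Rps6: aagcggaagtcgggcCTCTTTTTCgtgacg
Rps27: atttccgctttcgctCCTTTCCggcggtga
Rps18: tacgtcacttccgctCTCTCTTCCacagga
Rpl15: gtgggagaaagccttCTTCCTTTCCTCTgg
Rpl35: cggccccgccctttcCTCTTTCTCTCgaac
Rpl41: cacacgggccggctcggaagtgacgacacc
Rps4x: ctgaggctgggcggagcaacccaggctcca
The window depends on the annotated base. With a C and at least 6 pyrimidines allowed anywhere between 10 bases before and 50 bases after the start, 42 of the 56 members (75%) held a tract, against 28.2% of all genes. Over the 300 bases of a promoter and on both strands, CCGGAAG, the core of ETS family sites, lay in 23 of the 56 (41.1%, against 9.93% of genes), AAGATGG, the core of the YY1 site, in 9 (16.1%, against 7.28%), and TATAAA in 6 (10.7%, against 15.7%). A match describes the letters of the window and no more.

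All 76 mRNAs were abundant in the embryonic stem cells, and their order hardly differed between conditions. The level of a gene is given as FPKM, mapped fragments scaled by transcript length and by library size, so that levels of different genes can be set side by side. The mean over the 9 libraries had a median of 1750 FPKM over the members and ran between 190.3 FPKM for Rpl22 and 10490.5 FPKM for Rpl13a. Of the 76, 66 had a mean above 1000 FPKM, and 56 were among the 100 named symbols with the highest means.

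Within the large subunit, Rpl13a, a protein also known for a role outside the ribosome in human monocytes, was far above the next members, Rplp1 of the stalk (4542 FPKM) and Rpl12 at the stalk's base (3847 FPKM). The lowest large subunit members were Rpl22 (190.3 FPKM), Rpl37 (358 FPKM) and Rpl21 (374 FPKM). Small subunit members spanned a narrower range. The highest were Rps2 (3388 FPKM) and Rps3 was the lowest (879.7 FPKM); both line the path by which mRNA enters the ribosome. Rps18 (3288 FPKM) and Rps14 (2926 FPKM) followed Rps2, and Rps24 (1043 FPKM) and Rps13 (1070.3 FPKM) stood just above Rps3. Many ribosomal protein genes have near-identical processed copies in the genome, and the sources used here do not say whether fragments were shared with such copies. Rows named as copies reached 481 to 617 FPKM for Rpl14-ps1 and 432 to 509.5 FPKM for Rpl31-ps12, against means of 1101 FPKM for Rpl14 and 579.7 FPKM for Rpl31, so that the row of the Rpl31 copy stood close to its parent.

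The rank correlation of the 76 levels between 2 libraries lay between 0.935 and 0.991 over the 36 pairs of libraries, which share the gene lengths and annotation. The ratio of a member's highest to its lowest library had a median of 1.36 and ran between 1.08 and 1.84, and was under 1.5 for 59 members. The SD of log2(FPKM + 1) over the 9 libraries had a median of 0.149 over the members, against 0.322 over the 12533 tested genes. The median member thus varied less than the median tested gene. Levels were not matched for this: every member had at least 167.6 FPKM in each library, while the filter asked for 1 FPKM in 3 libraries.

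**Figure D1:**
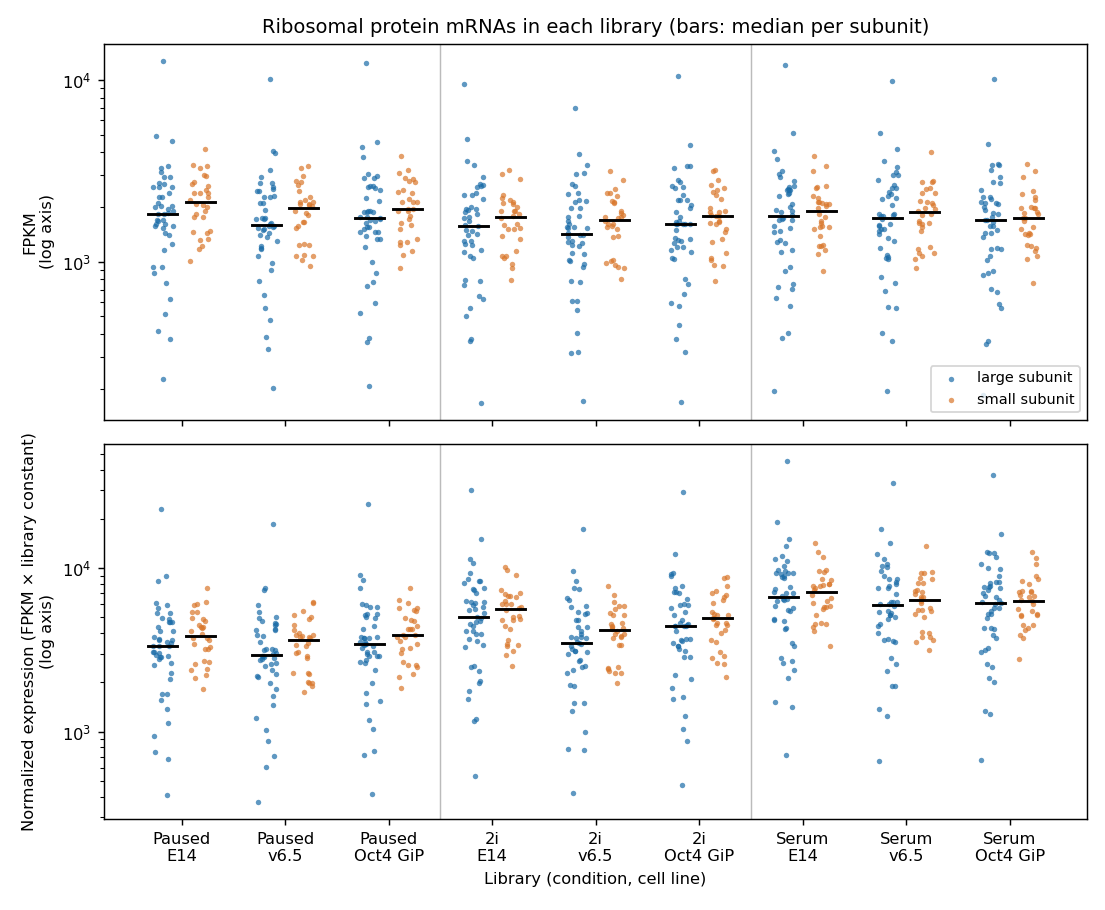
Each point is 1 of the 76 mRNAs in 1 library, on log axes of FPKM (top) and of the deposited normalized expression (bottom). Black bars are the median of the 46 large subunit and of the 30 small subunit mRNAs. In FPKM the 9 libraries sit close together, while in normalized expression the medians of all Paused libraries lie below those of all Serum libraries.

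Ribosomal protein mRNAs took a larger share of the named transcriptome in Paused cells than in either other condition. They made up 22.4 ± 1.06% of the summed FPKM of named symbols in Paused cells, 19.5 ± 0.382% in 2i cells and 20.1 ± 0.698% in Serum cells (SD, n = 3 each). The 3 Paused libraries had 21.6% to 23.6%, the 2i libraries 19.3% to 19.9% and the Serum libraries 19.4% to 20.8%, so Paused libraries overlapped with neither. The median member stood at 1843 ± 128 FPKM in Paused cells, 1613 ± 55.2 FPKM in 2i cells and 1776 ± 59.3 FPKM in Serum cells. Of the 76 members, 53 had their highest mean in Paused cells, 20 in Serum cells and 3 in 2i cells, and 65 had their lowest mean in 2i cells. Shares of this kind depend on all other named genes, and rows without a gene name are not in them. Named rows held 36.02% to 47.2% of a library's summed FPKM. Over all rows the members made up 8.94% to 10.03% in Paused, 7.40% to 7.92% in 2i and 7.23% to 8.93% in Serum libraries.

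Paused cells and Serum cells differed little in these mRNAs, gene by gene. Of the 76, 4 rose in Paused cells and 1 fell (limma-trend on log2(FPKM + 1), Benjamini-Hochberg adjusted p under 0.05 over 12533 genes). Among all tested genes 7.76% rose and 10.8% fell. With every library set to the same sum over named rows 14 members rose and 1 fell, and with every library set to its median gene 2 rose and 1 fell. The shares of all tested genes called in these fits are not given here. The median log2 fold change of the members was 0.10, against -0.01 over all tested genes. By line it was -0.02 in v6.5, 0.12 in Oct4 GiP and 0.12 in E14. All 3 Paused libraries lay above all 3 Serum libraries for 15 members (17.2% of all tested genes) and below them for 7 (21.5%). In all 3 lines 34 members were higher (29.5% of all tested genes) and 9 were lower (32.7%).

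The 1 mRNA that fell was Rpl41, which encodes the shortest protein of the ribosome, a basic peptide of the large subunit that bridges to the small one. Its gene lies at chr10:128548114-128549305 on the minus strand (GRCm38). Rpl41 had 2584, 2309.9 and 2533 FPKM in the Paused E14, v6.5 and Oct4 GiP libraries, 3394, 3043 and 3343 FPKM in 2i cells, and 3669, 4186 and 3384 FPKM in Serum cells, the lines in the same order here and below. Paused libraries lay below all the others without overlap, and the 2i and Serum libraries overlapped by a narrow margin. The log2 fold change was -0.59 ± 0.11 (SE) in Paused against Serum cells (adjusted p = 0.0207), -0.40 ± 0.11 in Paused against 2i cells (adjusted p = 0.026) and -0.20 ± 0.11 in 2i against Serum cells (not called). Both calls were lost when transcript length and GC content were regressed out of each library, an alternative chosen after seeing the data (log2 fold change -0.36, adjusted p = 0.0809, against Serum cells; -0.21, adjusted p = 0.171, against 2i cells). The call against Serum cells was also lost without any 1 of the 3 Paused libraries or without Serum E14 or Serum Oct4 GiP, at log2 fold changes of -0.68 to -0.53.

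Among the 4 that rose, Rps27, a small subunit protein with a zinc finger, changed most. Rps27 (chr3:90212522-90213651, minus strand) had 2625, 2275 and 2417 FPKM in Paused cells, 1610.5, 1859 and 1885 FPKM in 2i cells, and 1759.7, 1943 and 1729 FPKM in Serum cells. The Paused libraries stood above all 6 others, and 2i and Serum libraries overlapped. The log2 fold change was 0.43 ± 0.10 against Serum cells (adjusted p = 0.0384) and 0.45 ± 0.10 against 2i cells (adjusted p = 0.0148).

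Rps4x, the X-linked form of the small subunit protein S4, stood apart by condition. It had 2004, 1897 and 1896 FPKM in Paused cells, 1387, 1373 and 1325 FPKM in 2i cells, and 1626, 1630.1 and 1503 FPKM in Serum cells. The 3 conditions did not overlap, with Paused cells highest and 2i cells lowest, and the spread within a condition was at most 72.1 FPKM (SD). Rps4x rose by 0.28 ± 0.07 against Serum cells (adjusted p = 0.0341) and by 0.50 ± 0.07 against 2i cells (adjusted p = 0.00221), and fell in 2i against Serum cells (-0.22 ± 0.07, adjusted p = 0.0389). Condition accounted for 96.1% of the variance of its log2 levels over the 9 libraries, the highest share among the 76.

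Rpl17, which lines the exit of the tunnel that the new protein leaves by, had 1443, 1226 and 1339.8 FPKM in Paused cells, 1069, 935 and 1041 FPKM in 2i cells, and 1128, 1041 and 1077 FPKM in Serum cells. It rose by 0.30 ± 0.07 in Paused against Serum cells (adjusted p = 0.0301). Rps18, a protein of the small subunit's head, had 4188, 3297 and 3802 FPKM in Paused cells, against 3351, 2737 and 3149 FPKM in Serum cells. These groups overlapped, but the lines kept the same order in both conditions, and the rise within lines was 0.29 ± 0.08 (limma-trend, adjusted p = 0.0498). Rpl17 and Rps18 were not called when the line was left out of the fit.

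Several members had fold changes of similar size without being called. Rps15 (0.31 ± 0.09, adjusted p = 0.0619) and Rps20 (0.31 ± 0.12, adjusted p = 0.132) were on the upper side in Paused against Serum cells. On the lower side were Rpl37a (-0.28 ± 0.10, adjusted p = 0.0902), Rpl7a (-0.27 ± 0.09) and Rpl27 (-0.27 ± 0.08). At an unadjusted p under 0.05, 16 members were higher (16.6% of all tested genes) and 5 lower (19.7%). All 5 calls depended on single libraries: without 1 library 0 to 8 members were called higher and 0 to 2 lower. These fits hold fewer samples. The shares of all tested genes called in them are not given here, so the counts do not set the members apart from other genes. The count of 4 higher became 0 without any 1 Paused library, without 2i Oct4 GiP and without Serum E14 or Serum Oct4 GiP, 1 without 2i v6.5 or Serum v6.5, and 8 without 2i E14. The lone fall became 0 without any 1 Paused library and without Serum E14 or Serum Oct4 GiP, and 2 falls were called without 2i E14.

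**Figure D2:**
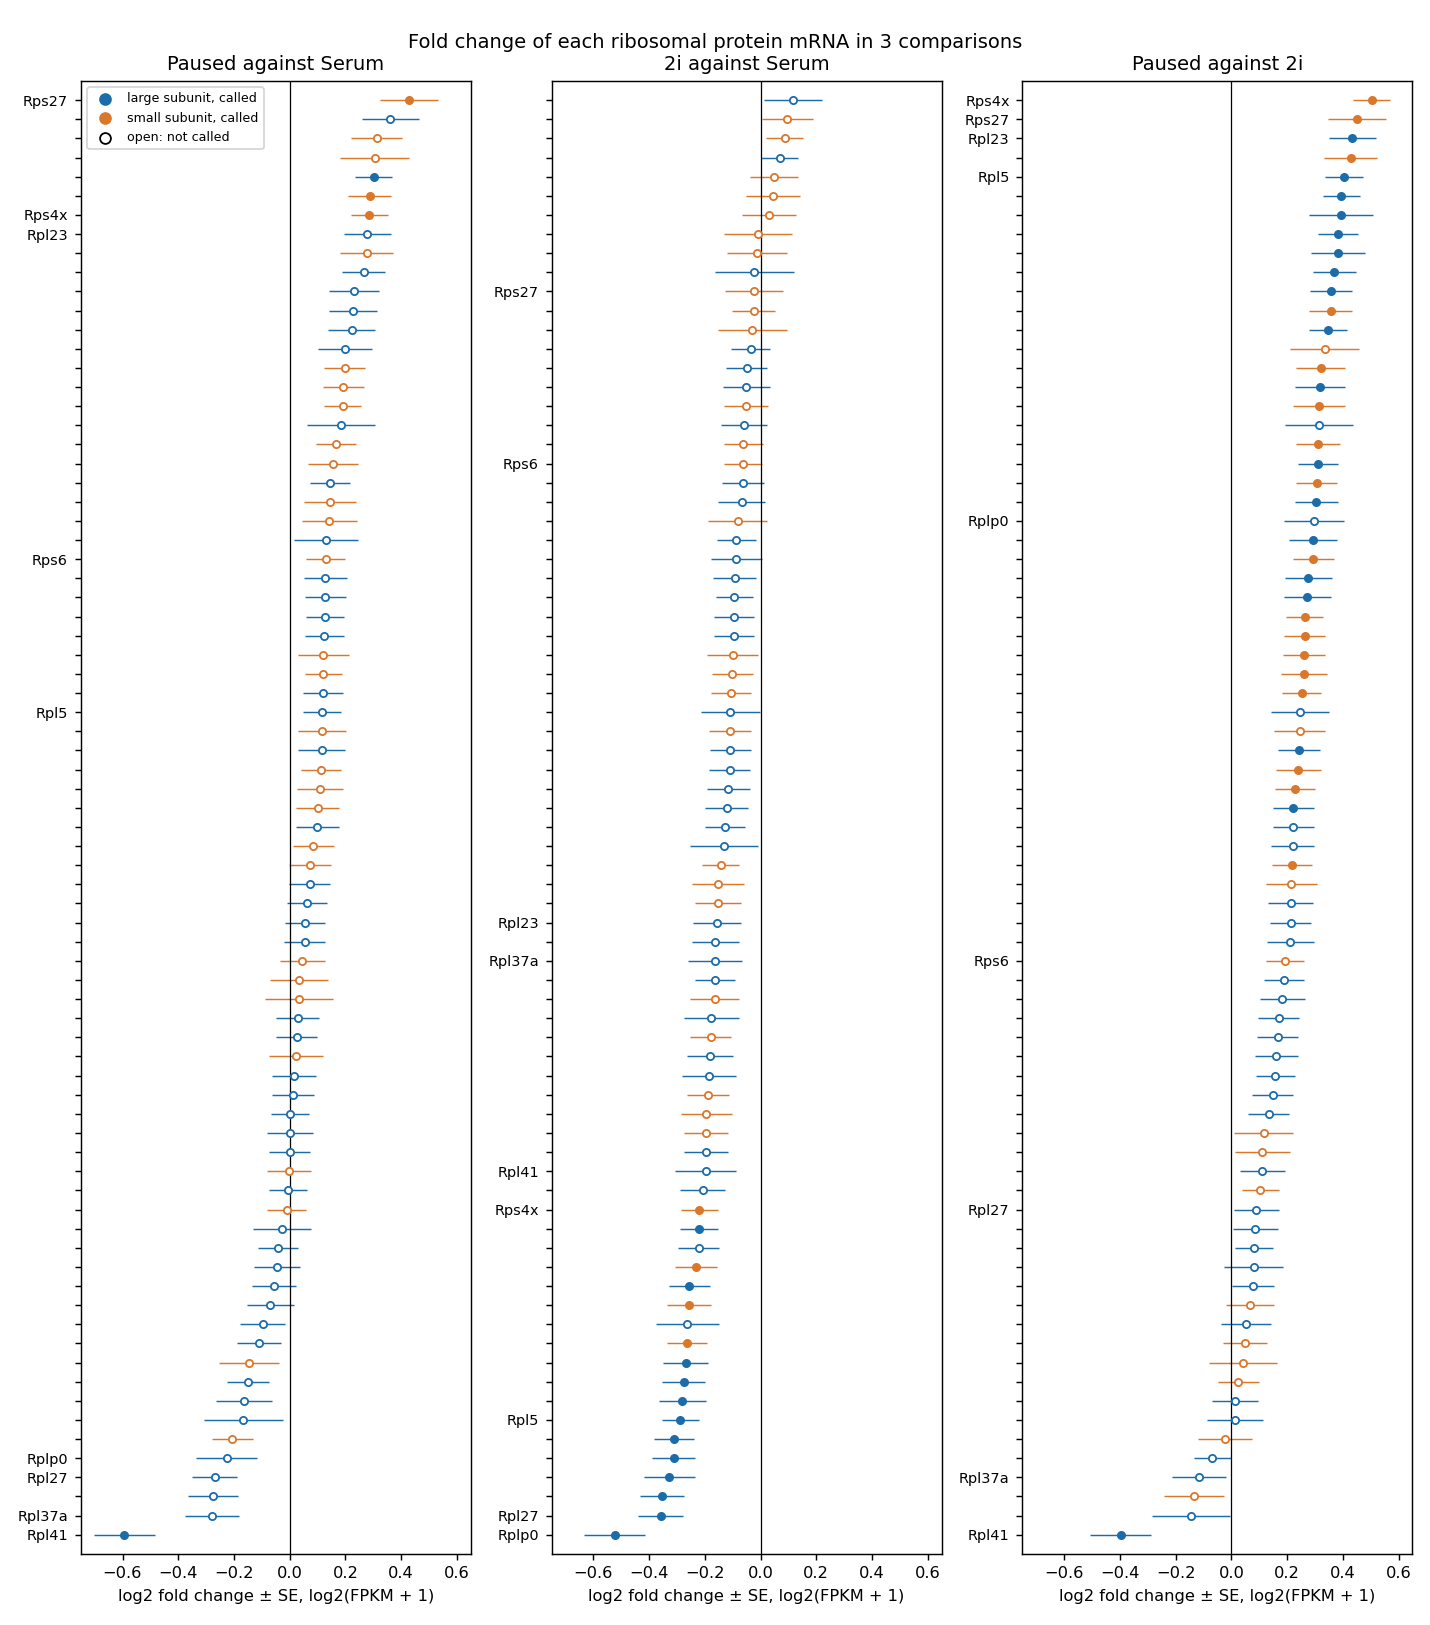
Log2 fold change of every member in 3 comparisons, on the log2(FPKM + 1) scale, with its standard error and sorted within each panel; the 9 members of the plot of levels by condition are named. Filled points passed the adjusted threshold: 4 higher and 1 lower in Paused against Serum cells, 16 lower in 2i against Serum cells, and 34 higher and 1 lower in Paused against 2i cells.

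Against Serum cells, 2i cells had slightly lower median levels of the ribosomal protein mRNAs, and the share of members that fell was near that of all tested genes. Of the 76, 16 fell (18.9% of all tested genes) and 0 rose (21.9% of all tested genes), and at an unadjusted p under 0.05 (limma-trend) 0 were higher (27.1%) and 22 lower (23.7%). With every library set to the same sum over named rows 6 fell (median -0.029), and with every library set to its median gene 29 fell (median -0.24). For these fits too, the shares of all tested genes are not given. The 16 were 12 of the 46 large subunit members and 4 of the 30 small subunit members. The median log2 fold change was -0.12, against 0.02 over all tested genes; by line it was -0.19 in v6.5, -0.03 in Oct4 GiP and -0.17 in E14. The 2i libraries lay below all Serum libraries for 32 members (22.4% of all tested genes) and above them for 1 (25.7%). In all 3 lines 45 members were lower (30% of all tested genes) and 2 were higher (34.3%).

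The largest fall in 2i cells was that of Rplp0, the protein that anchors the stalk of the large subunit, where translation factors bind. Rplp0 (chr5:115559467-115563727, plus strand) had 1871, 1679 and 1685 FPKM in 2i cells, against 2472, 2995 and 2125 FPKM in Serum cells. The groups did not overlap, and the Serum libraries were spread more widely (SD 438 FPKM) than the 2i libraries (SD 109 FPKM). The log2 fold change was -0.52 ± 0.11 (adjusted p = 0.0118), and the call held without any single library. In Paused cells Rplp0 had 2273, 2273 and 1899 FPKM, which overlapped with Serum cells. Rpl27 had 2567, 2198 and 2559 FPKM in 2i cells, against 3037, 3128 and 3206 FPKM in Serum cells, with a log2 fold change of -0.36 ± 0.08 (adjusted p = 0.0152). Its Paused libraries (2688, 2508 and 2577 FPKM) also lay below all Serum libraries, without a call.

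Further falls in 2i against Serum cells were those of Rpl6 (-0.35 ± 0.08), Rpl7a (-0.33 ± 0.09), Rpl15 (-0.31 ± 0.08), Rpl7 (-0.31 ± 0.07) and Rpl5 (-0.29 ± 0.07), all of the large subunit. Rpl35 (-0.28), Rpl10 (-0.28) and Rpl29 (-0.27) complete the 10 largest. Over the 9 fits without 1 library each, the calls of Rpl35 and Rpl29 held in 0 and those of Rpl10 and Rpl7a in 1. The calls of Rpl15 and Rpl5 held in 5, those of Rpl27 and Rpl7 in 6 and that of Rpl6 in 8. The small subunit members that fell were Rps13 (-0.26), Rps27a (-0.26), which is made as a fusion with ubiquitin, Rps2 (-0.23) and Rps4x (-0.22). Toward the other end stood Rps15 (0.10) and Rps23 (0.09), neither of which was called. The counts that follow come from fits with fewer samples, and the shares of all tested genes called in those fits are not given here. The count of 16 was 1 without 2i v6.5, 2 without Serum v6.5, 3 without Serum Oct4 GiP, 4 without 2i Oct4 GiP, 5 without Serum E14, 6, 8 and 7 without the Paused library of E14, v6.5 and Oct4 GiP, and 9 without 2i E14; the median stayed between -0.17 and -0.09.

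The largest number of changes lay between Paused and 2i cells. Of the 76, 34 rose in Paused cells (19.7% of all tested genes) and 1, Rpl41, fell (24.8% of all tested genes). The 34 were 17 of the 46 large subunit members and 17 of the 30 small subunit members. The median log2 fold change was 0.22, against -0.04 over all tested genes, and it was positive in v6.5 (0.21), Oct4 GiP (0.19) and E14 (0.28). All Paused libraries lay above all 2i libraries for 43 members (23.5% of all tested genes) and below them for 2 (28.6%). In all 3 lines 59 members were higher (31.6% of all tested genes) and 2 were lower (37%). At an unadjusted p under 0.05, 45 were higher (23.9%) and 1 lower (29.5%). This comparison shares its Paused libraries with the first comparison and its 2i libraries with the second, so the 3 sets of values are not independent.

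Besides Rps4x and Rps27, the larger rises against 2i cells included those of Rpl23 (0.43 ± 0.08, adjusted p = 0.00809), Rpl5 (0.40 ± 0.07, adjusted p = 0.00468), Rpl17 (0.40 ± 0.07, adjusted p = 0.00496), Rpl13a (0.39 ± 0.11, adjusted p = 0.0316), Rpl7 (0.38 ± 0.07, adjusted p = 0.00742) and Rpl23a (0.38 ± 0.10, adjusted p = 0.0207). Rpl7 had 1846, 1732 and 1692 FPKM in Paused cells, against 1426, 1276 and 1341 FPKM in 2i cells. These groups did not overlap.

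Rpl13a, the most abundant member, had 12708, 10172 and 12326 FPKM in Paused cells, 9504, 7035 and 10525 FPKM in 2i cells, and 12157, 9809.9 and 10177 FPKM in Serum cells. Its groups overlapped, and v6.5 was the lowest line in each condition. The lower end of the comparison held Rpl41, then Rpl38 (-0.14) and Rps29 (-0.13), which were not called. The count of 34 was 7 without Paused E14, 9 without Paused Oct4 GiP, 18 without Paused v6.5, 14 without 2i v6.5, 20 without 2i E14, 21 without 2i Oct4 GiP and 19 without Serum E14, while the median stayed between 0.20 and 0.25. Rpl41 was not called lower without any 1 Paused library, nor without 2i E14 or 2i Oct4 GiP. For these fits, which hold fewer samples, the shares of all tested genes called are not given here.

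**Figure D3:**
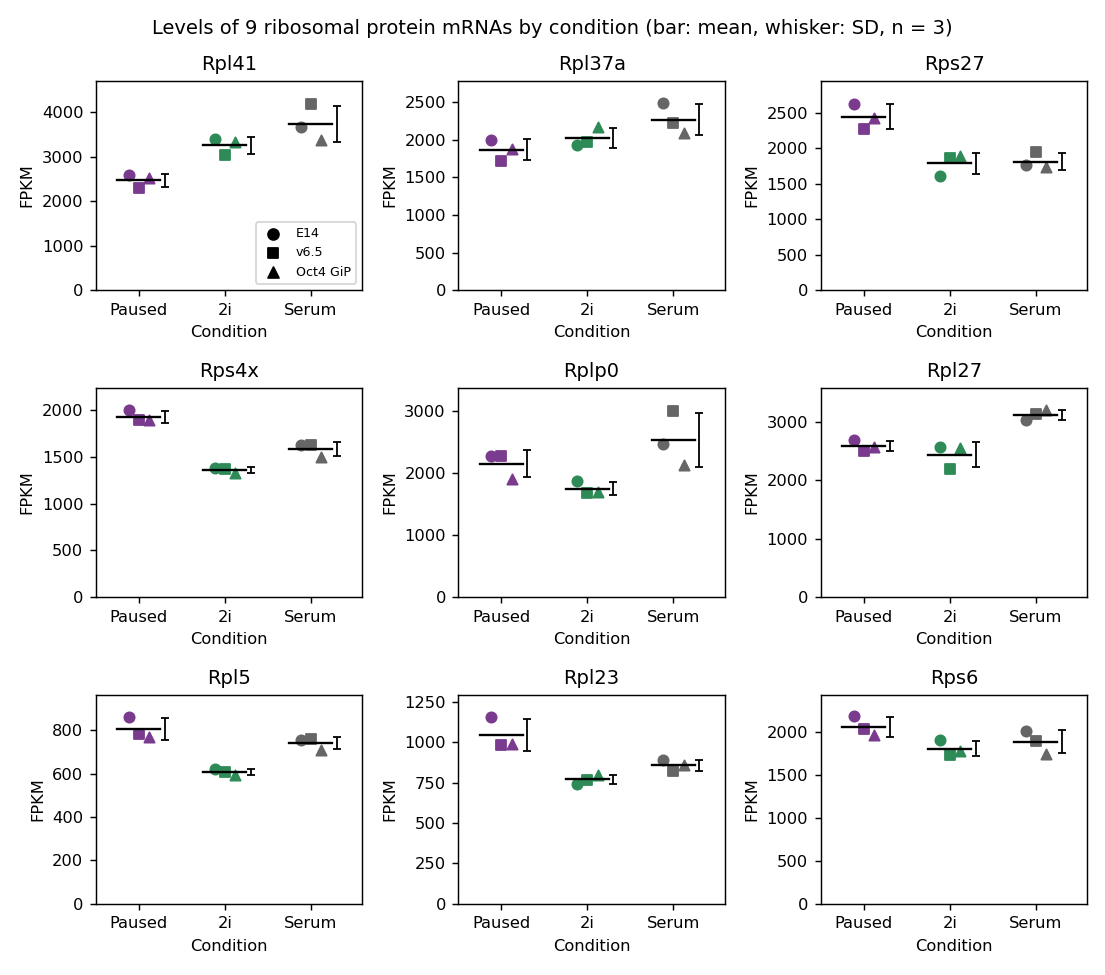
FPKM of 9 members in each library by condition, with the line shown by the marker, the mean as a bar and the SD of the 3 lines as a whisker; all axes start at 0. Rpl41 is lowest in Paused cells and Rps27 highest, Rps4x separates all 3 conditions, and Rplp0, Rpl5 and Rpl23 are lowest in 2i cells. The Paused libraries of Rps6 lie above its 2i libraries and overlap with its Serum libraries.

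Levels of the subunits were set against each other within each library. The median log2 level of large subunit members minus that of small subunit members was -0.23 ± 0.066 in Paused cells, -0.19 ± 0.059 in 2i cells and -0.08 ± 0.032 in Serum cells (SD, n = 3 each). The Paused libraries (-0.30 to -0.17) and the 2i libraries (-0.26 to -0.15) lay below all Serum libraries (-0.10 to -0.04). The summed FPKM of the large subunit over that of the small subunit was 1.52 ± 0.0234 in Paused cells, 1.55 ± 0.0625 in 2i cells and 1.64 ± 0.0125 in Serum cells, and again neither Paused nor 2i libraries overlapped with Serum libraries. These ratios are the same on both deposited scales, since a library's constant cancels in them.

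The median fold change was also taken per subunit. In Paused against Serum cells it was 0.12 for small subunit members and 0.04 for large subunit members; in 2i against Serum cells it was -0.10 and -0.16, and in Paused against 2i cells 0.25 and 0.21, in the same order. In Paused against 2i cells of the Oct4 GiP line alone it was 0.188 for small and 0.194 for large subunit members. Both subunits held members on either side. In Paused against Serum cells 26 of 30 small subunit members and 30 of 46 large subunit members had a positive log2 fold change. Calls were 3 higher and 0 lower among the small subunit members (limma-trend; 9 and 1 at an unadjusted p under 0.05) and 1 higher and 1 lower among the large (7 and 4). Since the members were chosen as a list, no p is given for the difference between subunits.

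**Figure D4:**
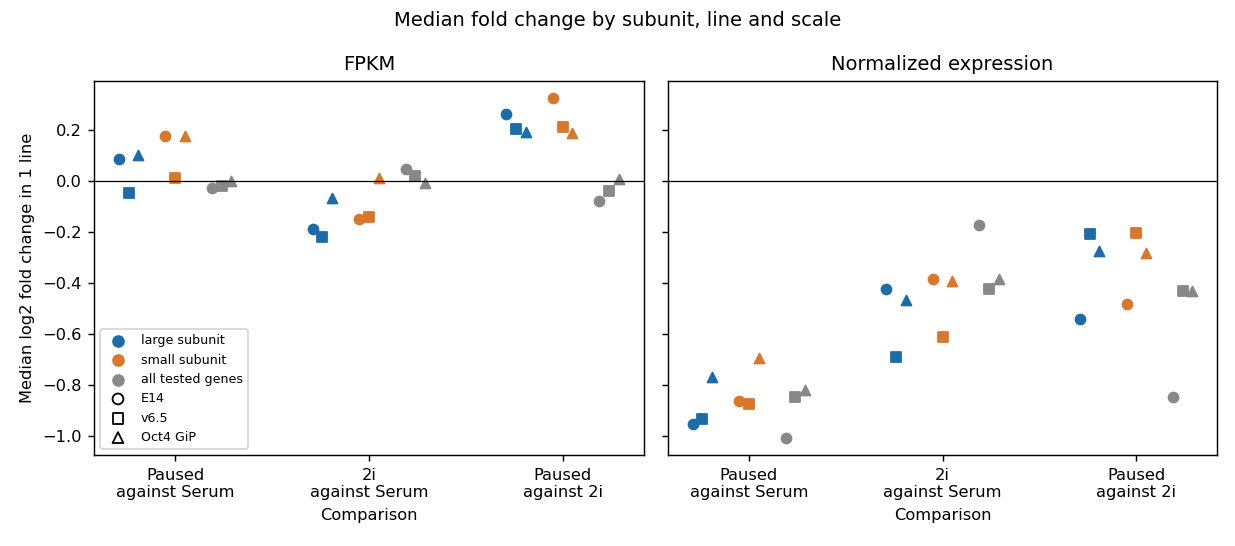
Median log2 fold change of the large subunit, the small subunit and all 12533 tested genes in each line (marker), in FPKM (left) and in normalized expression (right). In FPKM the members' medians stand near or above 0 in Paused against Serum cells and below 0 in 2i against Serum cells, except for the small subunit in Oct4 GiP; in normalized expression all medians are below 0.

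The second deposited value of each library, called normalized expression, is FPKM times 1 constant per library, and on it the members were lower in Paused cells. The constants were 1.81, 1.84 and 1.99 in Paused cells, 3.17, 2.45 and 2.76 in 2i cells, and 3.74, 3.40 and 3.64 in Serum cells, in the line order above. The sources used here do not say how the authors derived them. On that scale all 76 members fell in Paused against Serum cells, where 77.5% of all tested genes fell and 0.375% rose. The median log2 fold change of the members was -0.83 and that of all tested genes -0.89. The ratio of Paused to Serum level had a median over the members of 0.533 in v6.5, 0.596 in Oct4 GiP and 0.527 in E14, and it was below 1 for all 76 in each line. Rpl41 had the lowest ratio in all 3 lines (0.299 in v6.5, 0.409 in Oct4 GiP and 0.342 in E14). The constants leave the order of these ratios within a line as it is in FPKM.

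Rps6, the S6 kinase substrate, shows both scales. In FPKM it had 2190.1, 2034 and 1959.6 in Paused cells, 1901, 1731 and 1780.0 in 2i cells, and 2017, 1896 and 1747 in Serum cells. Paused and Serum libraries overlapped, while all Paused libraries lay above all 2i libraries. No comparison called Rps6, though it was higher in Paused against 2i cells at an unadjusted p under 0.05 (limma-trend). The log2 fold change was 0.13 ± 0.07 in Paused against Serum cells and 0.19 in Paused against 2i cells. In normalized expression it had 3972, 3748 and 3901 in Paused cells, 6036, 4248 and 4907 in 2i cells, and 7538, 6451 and 6363 in Serum cells. There the Paused libraries lay below all the others, and the log2 fold change was -0.80 (adjusted p = 0.001) against Serum cells.

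In normalized expression 66 members fell in 2i against Serum cells (35.8% of all tested genes) and 0 rose (9.8% of all tested genes); at an unadjusted p under 0.05 (limma-trend) 73 were lower and 0 higher. The median was -0.49, against -0.33 over all tested genes. On this scale the counts at an unadjusted p, here and in the next comparison, stand without a share of all tested genes. The library constants lower members and other genes alike in both. In Paused against 2i cells 39 fell (55% of all tested genes) and 0 rose (6.18% of all tested genes), against 49 lower and 0 higher at an unadjusted p under 0.05 (limma-trend), with a median of -0.34 against -0.57 over all tested genes. So the sign of the comparison between Paused and 2i cells differed between the scales, 0.22 in FPKM and -0.34 in normalized expression, and so did that between Paused and Serum cells. On either scale the members' median was above that of all tested genes in Paused against Serum and Paused against 2i cells and below it in 2i against Serum cells. A library's constant shifts members and other genes alike, so the scales are not separate observations of this. In v6.5 alone, the members' median in Paused against Serum cells was below that of all tested genes, at -0.0217 against -0.0186 in FPKM and at -0.91 against -0.85 in normalized expression.

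To describe which members left the common course, each library was also set to the mean log2 level of the 76 members, an alternative chosen after seeing the data. It removes both the constants and any change shared by the members, and the shares of all tested genes called in it are not given here. In Paused against Serum cells 5 members then fell, Rpl41 (-0.66), Rpl37a (-0.35), Rpl7a (-0.34), Rpl27 (-0.34) and Rps2 (-0.27), and Rps27 rose (0.36). In 2i against Serum cells Rplp0 fell (-0.39) and 2 members rose, Rps15 (0.23) among them. In Paused against 2i cells Rpl41 (-0.60), Rps29 (-0.34), Rpl37a (-0.32), Rpl32 (-0.27) and Rps28 (-0.23) fell, and 3 rose, among them Rps4x (0.30) and Rps27 (0.25). Rpl37a, a zinc finger protein of the large subunit, had 1999, 1723 and 1873 FPKM in Paused cells, 1927, 1966 and 2171 FPKM in 2i cells, and 2488, 2219 and 2093 FPKM in Serum cells; its Paused libraries lay below all Serum libraries.

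Transcript length and base composition were set beside the changes. The annotated transcripts had a median of 803.5 bases and ran from 345 bases for Rps27 to 5130 bases for Rps15a, with Rps20 at 3706 bases. These lengths come from the annotation and were not measured in the libraries. Across the 76 genes, which are not independent replicates, the Pearson correlation of the log2 fold change with transcript length was 0.12 in Paused against Serum cells, -0.19 in 2i against Serum cells and 0.27 in Paused against 2i cells, and with GC content it was -0.23, 0.09 and -0.32. Regressing both out of each library over all genes moved the members upward in Paused cells: 26 members then rose and 0 fell against Serum cells (median 0.25), 57 rose and 0 fell against 2i cells (median 0.36), and 1 rose and 7 fell in 2i against Serum cells. This is an alternative chosen after seeing the data, and the shares of all tested genes called in it are not given here.

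The members are taken by role next. Of the 4 stalk members, 0 were called in Paused against Serum cells, where 7.76% of all tested genes rose and 10.8% fell. At an unadjusted p under 0.05 (limma-trend), 2 of the 4 were higher (16.6% of all tested genes). Rplp0 fell in 2i against Serum cells (18.9% of all tested genes). Rplp2 (0.32 ± 0.09) and Rpl12 (0.36 ± 0.08) rose in Paused against 2i cells (19.7% of all tested genes). Rplp1, the partner of Rplp2 in the stalk, had 4613, 3969 and 4555 FPKM in Paused cells, 4727, 3902 and 4404 FPKM in 2i cells, and 5121, 5131 and 4458 FPKM in Serum cells, and was called in none. Rpl12 had 4914, 4086 and 4267 FPKM in Paused cells, 3565, 3386 and 3369 FPKM in 2i cells, and 4056, 3561 and 3415 FPKM in Serum cells. Rplp0 was thus lowest in 2i cells, while Rplp1 overlapped between all conditions.

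Rpl5 and Rpl11 bind the 5S rRNA and, outside the ribosome, the p53 regulator Mdm2; Rpl23 binds Mdm2 as well. Rpl5 had 862, 784 and 769 FPKM in Paused cells, 621, 609 and 592 FPKM in 2i cells, and 755, 761 and 710.1 FPKM in Serum cells. Its 2i libraries lay below all the others. Rpl11 had 2268, 2094 and 2144 FPKM in Paused cells, 1961, 1771 and 1882 FPKM in 2i cells, and 2313, 2284 and 2103 FPKM in Serum cells, and fell in 2i against Serum cells (-0.25 ± 0.07). Rpl23 had 1157, 983 and 991 FPKM in Paused cells, 743, 769 and 799.7 FPKM in 2i cells, and 891, 824 and 861 FPKM in Serum cells, and was called in Paused against 2i cells. Of these 3 members, 2 rose in Paused against 2i cells (19.7% of all tested genes) and 2 fell in 2i against Serum cells (18.9%).

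Of the 9 members at the wall or the exit of the peptide tunnel, Rpl17 rose in Paused against Serum cells (7.76% of all tested genes). In Paused against 2i cells 5 rose (19.7% of all tested genes, and 34 of all 76 members): Rpl4, Rpl17, Rpl22, Rpl23a and Rpl26. Rpl4 and Rpl35 fell in 2i against Serum cells (18.9% of all tested genes). Rpl4, which reaches into the tunnel, had 2102, 1915 and 1869 FPKM in Paused cells, 1586, 1545 and 1491 FPKM in 2i cells, and 1889, 1816 and 1685 FPKM in Serum cells, with 2i cells below all the others. Rpl22, the least abundant member, had 225, 201 and 207 FPKM in Paused cells, 168, 172 and 169.8 FPKM in 2i cells, and 193, 194 and 184 FPKM in Serum cells, and its 3 conditions did not overlap. Rpl19, Rpl31 and Rpl39 were called in none of the 3 comparisons.

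Of the 5 small subunit members at the decoding centre and along the mRNA channel, 0 were called in Paused against Serum cells. Among all tested genes 7.76% rose and 10.8% fell there. At an unadjusted p under 0.05 (limma-trend), 3 of the 5 were higher (16.6% of all tested genes) and 1 lower (19.7%). Rps2 and Rps27a fell in 2i against Serum cells (18.9% of all tested genes). Rps3 (0.31 ± 0.07) and Rps27a (0.36 ± 0.08) rose in Paused against 2i cells (19.7% of all tested genes). Rps2 had 3295, 3354 and 3070.2 FPKM in Paused cells, 3207, 3172 and 3167 FPKM in 2i cells, and 3793, 3993 and 3438 FPKM in Serum cells, so it stood below Serum in both other conditions and was called in 2i cells. Rps15 had 2742, 2439.8 and 2748 FPKM in Paused cells, 2191, 2152 and 2492 FPKM in 2i cells, and 2254, 2129.6 and 2002 FPKM in Serum cells, with Paused cells above all Serum libraries and not called. Rps23, which carries a residue close to the decoding site, was called in none.

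The 4 X-linked members, Rpl10, Rpl36a, Rpl39 and Rps4x, had a median log2 fold change of 0.31 in Paused against 2i cells, where 3 of them rose (19.7% of all tested genes, and 34 of all 76 members). Rpl10, which joins late in large subunit assembly, had 1670.2, 1432 and 1625 FPKM in Paused cells, 1300.1, 1219.5 and 1298 FPKM in 2i cells, and 1565, 1566 and 1492 FPKM in Serum cells, and fell in 2i against Serum cells. Rpl39 (1610.3, 1301 and 1460.0 FPKM in Paused cells, 1044, 1261 and 1209 FPKM in 2i cells, and 1309.7, 1343 and 1188 FPKM in Serum cells) was called in none. Of 5 members that have been tied to translation of selected mRNAs, Rpl10a, Rpl22, Rpl38, Rps25 and Rps26, 0 were called against Serum cells in either condition. Among all tested genes 7.76% rose and 10.8% fell in Paused cells, and 21.9% rose and 18.9% fell in 2i cells. At an unadjusted p under 0.05 (limma-trend), 1 of the 5 was higher in Paused cells (16.6% of all tested genes) and 1 lower in 2i cells (23.7%). Rpl10a, Rpl22 and Rps25 rose in Paused against 2i cells (19.7% of all tested genes, and 34 of all 76 members). Rpl38, which is needed for Hox mRNA translation in the mouse embryo, had 1691, 1518 and 1548 FPKM in Paused cells, 2396, 1395 and 1606 FPKM in 2i cells, and 1872, 1775 and 1692 FPKM in Serum cells; the 2i E14 library stood apart from the other 8.

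Mutations in 19 of the members cause Diamond-Blackfan anaemia in humans. Of these 19, 1 rose in Paused against Serum cells (Rps27; 7.76% of all tested genes), with a median of 0.03. In 2i against Serum cells 5 fell (Rpl5, Rpl11, Rpl15, Rpl27 and Rpl35; 18.9% of all tested genes), and in Paused against 2i cells 6 rose (19.7%), with a median of 0.15. Members with a tract exactly at the annotated start had medians of 0.13, -0.06 and 0.19 in the 3 comparisons, in the order Paused against Serum, 2i against Serum and Paused against 2i, and the other members with a promoter 0.06, -0.16 and 0.24.

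Lines differed less than conditions, and 0 members were called between any 2 lines (limma-trend, adjusted p under 0.05). The libraries of a line are its conditions, so conditions stand in for repeats of a line in these tests. At an unadjusted p under 0.05, 13 members differed between v6.5 and E14 (18.5% of all tested genes), 3 between v6.5 and Oct4 GiP (15.3%) and 2 between Oct4 GiP and E14 (13.1%). Of all tested genes, 2.05% were called between v6.5 and E14, 0.407% between v6.5 and Oct4 GiP and 0.00798% between Oct4 GiP and E14. Condition accounted for a median of 65.3% of the variance of a member's log2 level, line for 16.5% and the rest for 13.5%, against 65.4%, 13.4% and 14.6% over all tested genes. An F test over the conditions called 26 members (55.1% of all tested genes), and one over the lines called 0 (1.45%).

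Rpl13 was lowest in E14. It had 3215, 3086 and 3337 FPKM in v6.5 cells, 3779, 3265 and 3434 FPKM in Oct4 GiP cells, and 2566, 2337 and 2580.1 FPKM in E14 cells, each under Paused, 2i and Serum. E14 libraries lay below all the others. The log2 difference was 0.37 ± 0.07 in v6.5 against E14 (adjusted p = 0.0655) and 0.48 ± 0.07 in Oct4 GiP against E14 (adjusted p = 0.0685), and line accounted for 90.1% of its variance.

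Rps15a was lowest in v6.5 in every condition, at 948, 1003 and 1038 FPKM, against 1337, 1284 and 1224 FPKM in Oct4 GiP and 1481, 1146 and 1378 FPKM in E14 cells. The log2 difference was -0.41 ± 0.10 in v6.5 against E14 (adjusted p = 0.108) and -0.36 ± 0.10 in v6.5 against Oct4 GiP (adjusted p = 0.198). Rows named Rps15a-ps4 and Rps15a-ps6, copies of this gene, reached 51.6 to 72.1 FPKM and 80.1 to 111 FPKM. Rpl13a was lower in v6.5 too (-0.35 ± 0.11 against E14 and -0.30 ± 0.11 against Oct4 GiP), and was not called.

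**Figure D5:**
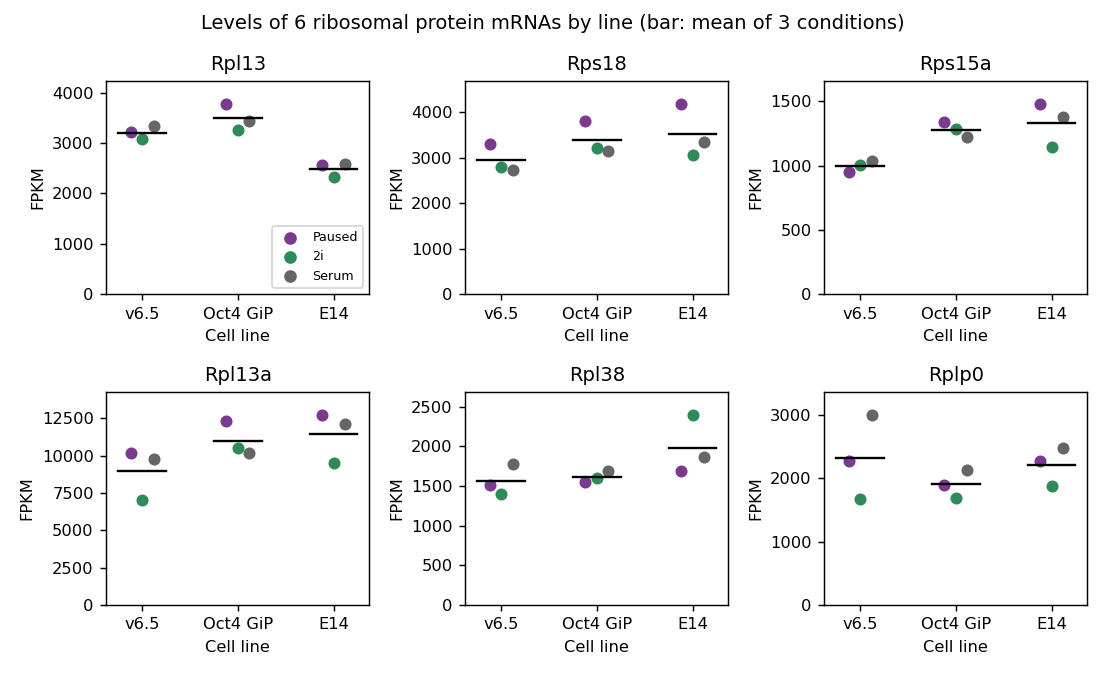
FPKM of 6 members by line, with the condition shown by colour and the mean of the 3 conditions as a bar; all axes start at 0. Rpl13 is lowest in E14, Rps15a, Rps18 and Rpl13a are lowest in v6.5, Rpl38 has 1 high library (2i, E14), and Rplp0 differs more between conditions than between lines.

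Paralogs outside the naming rule were set beside the members. Of 13 listed symbols, 9 were in the table and tested, and in Paused against Serum cells 4 fell (10.8% of all tested genes), with a median log2 fold change of -0.26; the list holds Rps3a1, the usual gene of its protein. Rps27l, the paralog of Rps27 and a p53 target, had 411, 377 and 398 FPKM in Paused cells, 687, 681 and 691 FPKM in 2i cells, and 752, 834 and 708 FPKM in Serum cells. It fell by 0.95 on the log2 scale against Serum cells (SE 0.08, adjusted p = 0.00882), while Rps27 rose. Rps4l, the paralog of Rps4x, had 393, 414 and 486 FPKM in Paused cells, 700.1, 671 and 663 FPKM in 2i cells, and 537, 567 and 582 FPKM in Serum cells, and fell against Serum cells (-0.39 ± 0.09) while Rps4x rose. The difference in course between a gene and its paralog was not tested. Rpl36al (-0.56 ± 0.08) and Rpl7l1 (-0.51 ± 0.08) were the other 2 that fell.

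In 2i against Serum cells, Rpl39l (1.27 ± 0.26, adjusted p = 0.0107) and Rpl10l (1.10 ± 0.22, adjusted p = 0.00992), both known from male germ cells, rose, and Rpl36al (-0.26 ± 0.08, adjusted p = 0.0373) and Rpl7l1 (-0.25 ± 0.08, adjusted p = 0.0465) fell; these were 2 of 9 each way (21.9% and 18.9% of all tested genes). Rpl39l had 72.8, 41.1 and 78.4 FPKM in 2i cells, against 35.3, 19.0 and 23.5 FPKM in Serum cells, far below its parent Rpl39. Rpl10l had 162, 105 and 233 FPKM in 2i cells, against 94.9, 33.4 and 123 FPKM in Serum cells, groups that overlapped. In Paused against 2i cells 6 of the 9 fell (24.8% of all tested genes), among them both of these, and Rps3a1 rose (0.39 ± 0.07), as 34 members did. Fau, whose product is a fusion of a ubiquitin-like protein with a ribosomal protein, was called in none of the 3 comparisons.

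Other mRNAs known to carry a TOP tract, 20 of which were tested, are given for comparison. In Paused against Serum cells 2 rose (7.76% of all tested genes), the elongation factor Eef2 (0.52 ± 0.11) and the helicase Eif4a2 (0.44 ± 0.07), and 3 fell (10.8%), Eef1d (-0.86 ± 0.16), the poly(A)-binding protein Pabpc1 (-0.45 ± 0.10) and Nap1l1 (-0.34 ± 0.09), with a median of -0.10. In 2i against Serum cells 1 rose (21.9% of all tested genes) and 10 fell (18.9%), with a median of -0.27, and in Paused against 2i cells 9 rose (19.7%) and 2 fell (24.8%), with a median of 0.14. Eef1a1 is listed at 0 in all 9 libraries and has no value here. Among 13 tested chaperones and importers of ribosomal proteins, 7 fell (18.9% of all tested genes) and 1 rose (21.9%) in 2i against Serum cells, with a median of -0.46, led by the importer Ipo5 (-1.11 ± 0.17). Ipo5 had 202, 185 and 199.8 FPKM in Paused cells, 71.9, 121 and 113 FPKM in 2i cells, and 201, 244 and 203 FPKM in Serum cells. In Paused against Serum cells 1 of the 13, Grwd1, a chaperone of Rpl3, fell (-0.38 ± 0.09), against 10.8% of all tested genes.

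Markers of embryonic stem cells were present in every library, at levels that differed between conditions and lines. The summed FPKM of 10 such markers was 6592 to 6978 in Paused cells, 4028 to 4741 in 2i cells and 4678 to 6003 in Serum cells, with 10 of 10 reaching 1 FPKM. Pou5f1 and Dppa5a made up much of the sum. In 2i against Serum cells 3 of the 10 fell (18.9% of all tested genes) and 1 rose (21.9%). Lin28a had 32.9, 9.92 and 11.4 FPKM in 2i cells, against 210.5, 257 and 169 FPKM in Serum cells. Nanog and Esrrb were lowest in the Serum v6.5 library, at 42.8 and 25.2 FPKM. Markers of trophoblast (8 of 10 reaching 1 FPKM) summed to 27.5 to 49.7 in Paused, 48.9 to 74.9 in 2i and 65.3 to 323 in Serum cells. Those of fibroblast feeders (4 of 7) summed to 7.40 to 13.9, 3.86 to 5.07 and 31.7 to 138. Both sums reached their highest values in Serum cells, and the trophoblast sums of 2i and Serum cells overlapped. In Serum E14 cells Krt8 (161 FPKM) and Krt18 (108 FPKM) made up much of the trophoblast sum, and Tagln (114 FPKM) much of the fibroblast sum. Not every marker followed: Tfap2c was higher in 2i than in Serum cells of each line, and Eomes in v6.5 and Oct4 GiP. Markers of primitive endoderm (4 of 8) summed to 16.0 to 18.8, 15.8 to 21.7 and 12.6 to 23.2. The fibroblast marker Dcn was listed at 0 in every 2i library, and the other markers of these lists were at 0 in all libraries of no condition. Whether the Serum libraries held other cell types, and what part these would have had in the results above, was not tested.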

How the data were processed

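RNA of 9 cultures was sequenced, 3 lines in 3 conditions. The authors deposited 1 table of 29801 rows with FPKM from Cuffnorm on mm10, per the submitters' processing notes, which give no version. Beside each FPKM column the authors deposited a signal column headed as normalized expression, which equals FPKM times 1 constant per library (read from the values). The sources used here do not give the aligner, annotation, strand handling or use of the spike-in. The table holds no counts, so depth is unknown and values carry no counting interval. Rows without a gene name (18.9% of rows, with over 50% of the summed FPKM) and 113 repeats were left out; 0 columns lacked a sample.

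Of symbols on several rows the row with the highest mean was kept. Symbols with FPKM of at least 1 in at least 3 libraries were tested, 12533 in all, on log2(FPKM + 1) (pseudocount 1) with limma-trend (limma 3.58.1, R 4.3.3) in 1 fit of condition and line over the 9 libraries, with Benjamini-Hochberg adjustment over all tested symbols and a threshold of 0.05; fold changes understate those of low genes. The line, the same cells in each condition, is the pairing and is part of the fit. The method was tested on simulated data. Called, rose and fell mean past that threshold. Coordinates, transcript lengths (annotated principal transcripts) and GC content come from the GENCODE annotation of GRCm38; 94.6% of tested symbols and all 76 members had a value. Promoter sequences come from RefSeq, and no protein sequences were used.

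A few results on single genes are not reported here. The members and lists were chosen with earlier results of these data known. Named in the text are called members (the 10 largest changes where more were called), the 3 largest changes each way, the 3 highest and lowest levels per subunit, members of the role lists, and genes of the outside lists that were called. Rpl14 and Rpl31, whose levels are set beside their copies, Rpl37a, Rps29 and Rpl32 outside the 3 largest changes of a comparison, and the paralog pairs were chosen after their values were seen. Alternatives changed the pseudocount, the filter, the line term, the scaling, the row choice and the libraries; 2, named where used, were chosen after seeing the data.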

Additional observations from a re-analysis of the deposited data

Results flagged for a closer look

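In Paused against Serum cells the median log2 fold change of the 76 members was -0.022 in v6.5, while it was 0.12 in E14 and 0.12 in Oct4 GiP. Among the large subunit members it was -0.047 in v6.5, against 0.09 in E14 and 0.10 in Oct4 GiP. In 2i against Serum cells the median of the small subunit members was 0.012 in Oct4 GiP, against -0.15 in E14 and -0.14 in v6.5. Each stands here because the direction in 1 line was opposite to that in the others. The difference between lines was not tested, since each line has 1 library per condition.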

How the results depend on the processing

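The line was the pairing of this design, and without it (no line block) 2 members were called higher in Paused against Serum cells in place of 4. In that fit 12 were lower in 2i against Serum cells and 24 higher in Paused against 2i cells. The 3 medians could not move, since each line gave 1 library in each condition. Without a filter on low values the calls were 0 higher and 0 lower in Paused against Serum cells, 3 lower in 2i against Serum cells, and 9 higher and 0 lower in Paused against 2i cells; at log2(FPKM + 0.1), and with rows of a symbol summed, no count of calls moved by more than 1. On the authors' normalized expression the calls were 0 higher and 76 lower (median -0.83), 66 lower (median -0.49), and 0 higher and 39 lower (median -0.34) in the same order of comparisons. There Rps27 (-0.50), Rpl17 (-0.63), Rps18 (-0.65) and Rps4x (-0.65) turned in Paused against Serum cells, and Rps4x (-0.058), Rps27 (-0.11), Rpl23 (-0.13), Rpl5 (-0.16), Rpl17 (-0.17), Rpl13a (-0.17), Rpl7 (-0.18) and Rpl23a (-0.18) in Paused against 2i cells; the library constant makes that difference. Relative to the median gene, 2 were higher in Paused against Serum cells, 29 lower in 2i against Serum cells (median -0.24) and 54 higher and 0 lower in Paused against 2i cells (median 0.32). At the same sum over named rows, 14 were higher in Paused against Serum cells (median 0.19) and 6 lower in 2i against Serum cells (median -0.029), and 2 members were called in v6.5 against E14.

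Without all E14 libraries the calls were 0 higher and 0 lower, 3 lower, and 5 higher and 0 lower; without v6.5 they were 0 and 0, 0 lower, and 8 higher; without Oct4 GiP they were 0 and 0, 0 lower, and 1 higher and 0 lower. These fits hold fewer samples. Without 1 library the ranges were 0 to 8 higher, 0 to 2 lower and a median of 0.05 to 0.12 in Paused against Serum cells; 0 higher, 1 to 9 lower and -0.17 to -0.09 in 2i against Serum cells; 7 to 38 higher, 0 to 1 lower and 0.20 to 0.25 in Paused against 2i cells; and 0 calls between lines. Leaving out libraries was followed gene by gene for 24 of the called changes, at most the 10 largest of a comparison; 6 stayed called without any 1 library: Rplp0 in 2i against Serum cells and Rpl5, Rpl7, Rpl17, Rpl23 and Rps4x in Paused against 2i cells. Chosen after seeing the data, regressing out length and GC gave 26 higher and 0 lower (median 0.25), 1 higher and 7 lower, and 57 higher and 0 lower (median 0.36), and relative to the members' mean 1 and 5, 2 and 1 (median 0.013), and 3 and 5 (median 0.019). The counts of this section stand without the share of all tested genes called in the same fit. The cause of the differences between fits was not tested, apart from what the constants and the fewer samples show. Depth is unknown, so what it limits could not be read.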
